A study of Mus musculus with 12 samples.

Results

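The FOXO transcription factors Foxo1, Foxo3, Foxo4 and Foxo6 were followed across treatment, time and tumour in cultured mouse medulloblastoma cells. Members were found by gene symbol in the array annotation, which gave 4 of 22180 genes, measured by 5 of the 23521 probe sets that name a single gene. Foxo1 had a pair of probe sets and the others 1 each, and the probe set with the highest mean over the 12 arrays stood for its gene. All 4 genes passed the filter on low values.

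Medulloblastoma is an embryonal brain tumour, and the cells, called MP, model its MYC-driven Group 3 form. They were taken from cerebella of immunodeficient NSG mice, and cells from each of 3 tumours (labelled MP525, MP567, MP570) were plated in Neurocult medium with a proliferation supplement. They received either 25 nM LBH589 (panobinostat, an inhibitor of histone deacetylases) or 0.00025% DMSO and were lysed after 6 or 12 h. The question named for the series is how such inhibitors kill these cells. This gave 4 groups, DMSO 6 h, DMSO 12 h, LBH589 6 h and LBH589 12 h, each with 1 array from every tumour (n = 3). All groups shared the MYC-driven tumour model, the host strain and the medium. There was no untreated group and no normal cerebellum, and no source used here says whether each tumour came from a mouse of its own. P-values for treatment and time measure the spread between these 3 tumours and their cultures. With the tumour as a block they measure the spread of cultures after the tumours' own levels are taken out, and p-values between tumours rest on 4 arrays of 1 tumour on each side.

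FOXO proteins are forkhead transcription factors that bind DNA and switch on genes of cell cycle arrest, cell death, stress resistance and metabolism. Insulin and growth factor signals activate the kinase AKT, which phosphorylates FOXO proteins so that they leave the nucleus. In the nervous system they are known for keeping neural stem cells in reserve, and Foxo6 is the member known mainly from the brain. Arrays measure the transcripts, not where the proteins are.

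The values are log2 expression values of whole-transcript arrays, on which 1 unit is a doubling. Array medians lay between 7.10 and 7.21, and pairs of arrays correlated at 0.965 to 0.991 across all probe sets. All 12 markers listed for neural progenitors and embryonal tumour cells passed the filter, with an average of 9.05 to 9.82 per array. Averaged over both times, 1 of them (Sox9) rose under LBH589 and 4 (Neurod1, Prom1, Dcx and Msi1) fell. Averages of the 8 endothelial markers lay at 7.40 to 7.80 over the DMSO 6 h arrays, 7.54 to 7.87 over the LBH589 6 h arrays, 7.21 to 7.79 over the DMSO 12 h arrays and 7.52 to 7.95 over the LBH589 12 h arrays. Of the 8, 1 rose: Kdr, a receptor for vascular growth factor, by 0.81 at 6 h and 0.71 at 12 h. The 8 immune markers averaged 7.15 to 7.58, with Cd68 higher and Ptprc lower under LBH589. Ptprc lay near the low end, with a median of 6.04, and was above the 25th percentile on only 6 of the 12 arrays. Of 5 neuron markers tested, Syt1 rose and Rbfox3 fell, and Gabra6, the marker of mature granule neurons, lay under the 25th percentile on all arrays. Of the 6 astrocyte, 5 oligodendrocyte and 7 fibroblast and pericyte markers tested 0 were called in limma without a block for tumour (2, 0 and 1 at an unadjusted p under 0.05). The block raised the averaged calls, to 1 astrocyte marker higher (Gfap) and 2 lower (Slc1a3, Gja1), 2 oligodendrocyte markers higher (Olig1, Olig2) and 2 of fibroblasts and pericytes higher (Rgs5, Col1a1). It called 3 endothelial markers higher (Kdr, Cldn5, Pecam1), 1 immune marker higher and 2 lower, 3 neuron markers higher and 2 lower, and 2 progenitor markers higher and 6 lower. Averaged over both times, limma called 30.1% of all tested genes without the block and 45.9% with it. Without the block, 7312 of the 18652 tested genes had an unadjusted p under 0.05. The part of these marker changes in the results on Foxo genes was not tested. In bulk RNA of this kind, fewer cells of a type and less RNA per cell cannot be told apart.

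Foxo1 and Foxo6 transcripts were higher under LBH589 at both times. Foxo1 was 3.19-fold higher at 6 h and 2.85-fold higher at 12 h, and Foxo6 1.59-fold and 1.63-fold higher. Foxo4 was a little higher in all 3 tumours, a difference that did not pass the test without a block for tumour but did in the fit that compares each tumour with itself. Foxo3 did not pass the test in either fit. Genes were called at an adjusted p under 0.05 in limma, fitted to all 18652 genes tested, and 2 of the 4 members were called higher at 6 h, where 8.49% of all tested genes were called higher and 15.8% were called in either direction. At 12 h the same 2 of 4 were called, against 9.13% higher and 18.2% in either direction. Averaged over both times it was again 2 of 4, against 15.7% higher and 30.1% in either direction. A block for tumour raised this to 3 of 4 called higher in each comparison, where it called 18% of tested genes higher at 6 h, 18.6% at 12 h and 23.7% on average, and 34%, 37.1% and 45.9% in either direction. The effects at 6 h and 12 h use different arrays, and their average uses both sets.

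Stretches just before the start site are shown for the members that the RefSeq promoter table holds (build GRCm38.p6), since 1 of them rose under LBH589 and the other did not pass the test. These were 2 of the 4 members, with Foxo1 at chr3:52268087-52268336 on the plus strand and Foxo3 at chr10:42276696-42276945 on the minus strand. Each run holds the 250 bases before the start, 5′ to 3′, and capitals mark the letters CCAAT and GGGCGG, searched on both strands (so also ATTGG and CCGCCC).
Foxo1: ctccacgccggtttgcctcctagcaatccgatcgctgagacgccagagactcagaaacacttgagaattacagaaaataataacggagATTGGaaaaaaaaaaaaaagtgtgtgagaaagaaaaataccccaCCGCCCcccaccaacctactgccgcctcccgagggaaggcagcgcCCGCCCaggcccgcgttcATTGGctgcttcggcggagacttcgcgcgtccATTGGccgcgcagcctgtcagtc
Foxo3: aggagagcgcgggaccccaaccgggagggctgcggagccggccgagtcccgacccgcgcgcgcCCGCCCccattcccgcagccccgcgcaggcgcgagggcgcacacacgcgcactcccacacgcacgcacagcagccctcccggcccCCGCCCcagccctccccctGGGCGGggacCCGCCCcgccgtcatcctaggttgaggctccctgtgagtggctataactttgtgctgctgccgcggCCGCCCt
The Foxo1 stretch held CCAAT 3 times, read as ATTGG at 162 to 158, 55 to 51 and 23 to 19 bases before the start. At least 1 match was found in 33.8% of 32851 mouse promoters of the same length, and 2 or more in 10.1%. The Foxo3 stretch held no CCAAT but 5 matches to GGGCGG, against 2 in Foxo1, a motif found at least once in 32.7% of promoters and 2 or more times in 16.7%. Bases G and C made up 76.4% of the Foxo3 stretch and 56.0% of the Foxo1 stretch, where the median of all promoters was 52.4%. The letters CACGTG, which MYC and its partners bind, were in neither stretch and in 6.02% of promoters, and the FOXO binding letters GTAAACA were in neither and in 3.17%. These matches describe the sequence and were not tested for binding.

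**Figure D1:**
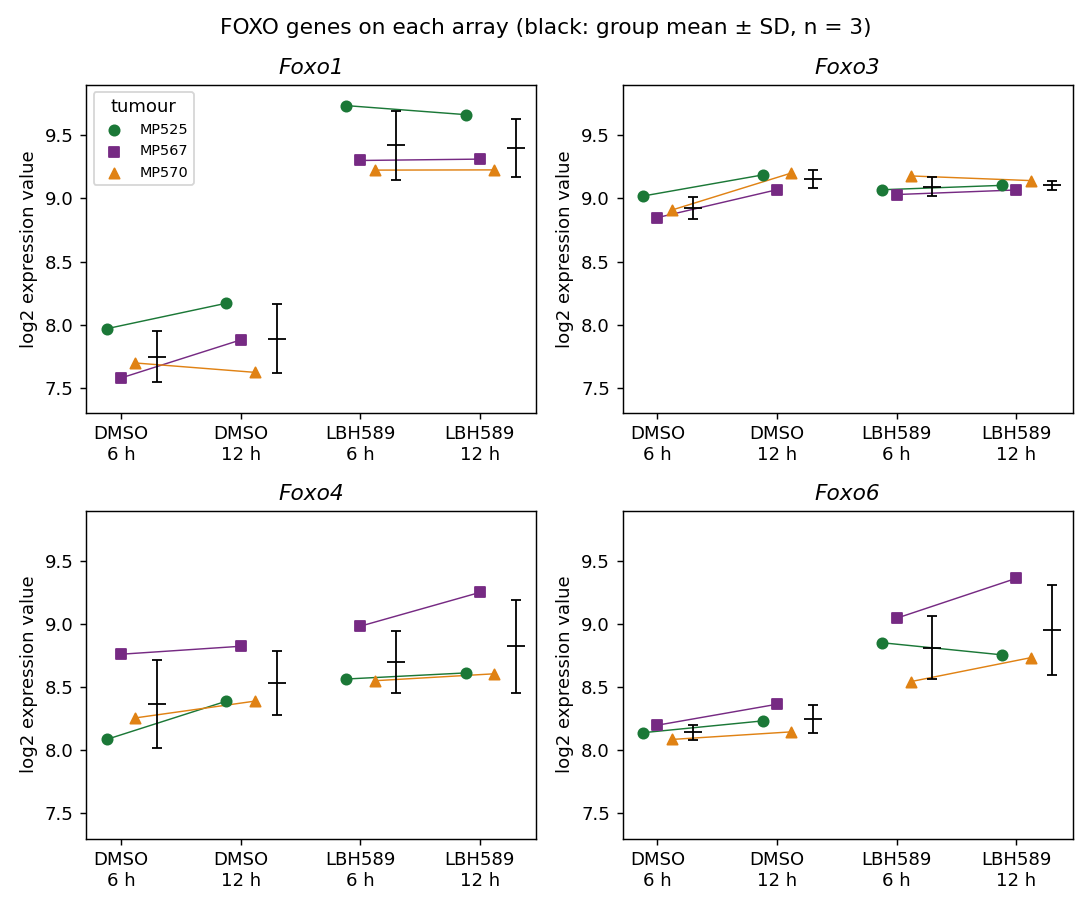
Log2 expression value of each FOXO gene on the 12 arrays, by treatment and time. Coloured points are the tumours, lines join the arrays of a tumour within a treatment, and black marks are the group mean ± SD (n = 3). Foxo1 and Foxo6 lie higher on every LBH589 array than on any DMSO array, while Foxo3 stays between 8.85 and 9.20 on all arrays.

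Foxo1, known for its part in the insulin response, was the member with the largest difference. On the DMSO arrays at 6 h it read 7.97 in MP525, 7.58 in MP567 and 7.70 in MP570, and at 12 h 8.17, 7.88 and 7.62. Under LBH589 it read 9.74, 9.30 and 9.22 at 6 h and 9.66, 9.31 and 9.23 at 12 h. All 6 LBH589 arrays were above all 6 DMSO arrays. The share of all tested genes whose treatment groups do not overlap was not counted, for Foxo1 or for the members below. The lowest LBH589 array lay 1.26 above the highest DMSO array of its time at 6 h and 1.06 at 12 h. Within tumours the rise was 1.77, 1.72 and 1.53 at 6 h and 1.50, 1.43 and 1.61 at 12 h in MP525, MP567 and MP570. In limma the rise was 1.67 ± 0.19 (SE) at 6 h, with a 95% confidence interval of 1.26 to 2.09 and an adjusted p of 0.000246. At 12 h it was 1.51 ± 0.19, with an interval of 1.10 to 1.92 and an adjusted p of 0.000368. The effects at the 2 times differed by -0.16 ± 0.27 (12 h minus 6 h), with an adjusted p of 1.0 in limma. Foxo1 kept its call at both times when each array, and each tumour, was left out.

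The dimmer probe set named Foxo1 did not show a rise of that size. Its values on DMSO arrays were 6.88, 7.06 and 6.97 at 6 h and 6.82, 7.13 and 6.88 at 12 h in MP525, MP567 and MP570. Under LBH589 they were 7.002, 7.18 and 6.97 at 6 h and 7.20, 7.15 and 7.26 at 12 h. The groups overlapped at 6 h, while at 12 h all 3 LBH589 arrays were above the DMSO arrays by small amounts. Fitted as a feature of its own, its difference was 0.08 ± 0.10 (SE) at 6 h and 0.26 ± 0.10 at 12 h, with adjusted p of 0.708 and 0.108 in limma, and 0.0515 at 12 h with the block. At 12 h it was called with the tumour as a random block (0.26, adjusted p of 0.0374 in limma), with arrays centred on reference genes (0.34, 0.0456) and without the DMSO 12 h array of MP567 (0.35, 0.0435). No source used here gives the stretch of the gene that either probe set reads. With the mean of the pair as the gene's value, the Foxo1 rise was 0.88 at 6 h and 0.89 at 12 h, still called (adjusted p of 0.000451 and 0.000336 in limma).

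**Figure D2:**
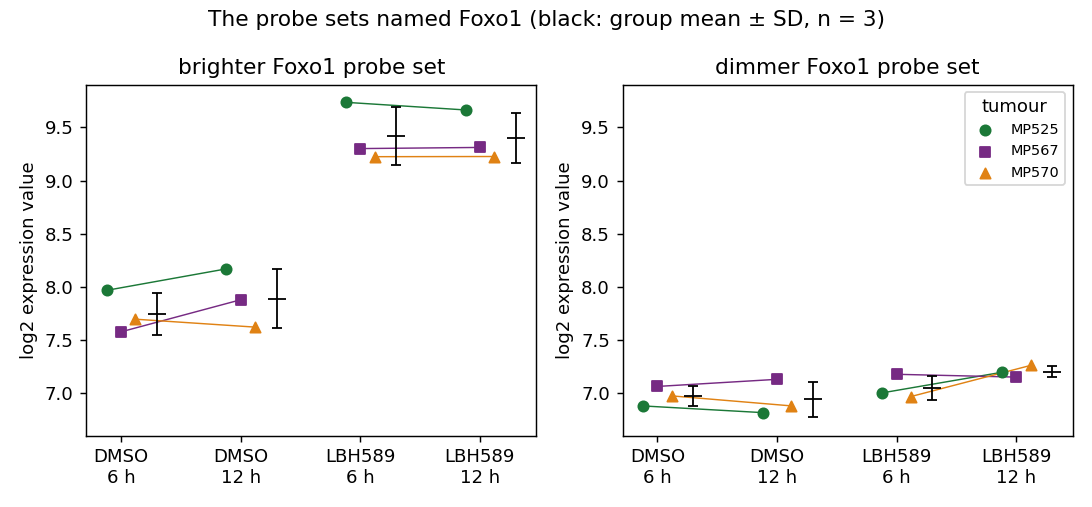
Log2 expression values of both probe sets named Foxo1 on the 12 arrays. Points are tumours, and black marks are the group mean ± SD (n = 3). The brighter probe set, used as the gene's value, lies above 9.2 on every LBH589 array and below 8.2 on every DMSO array, while the dimmer one lies between 6.82 and 7.26 on all 12.

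Foxo6, a member known to move between nucleus and cytoplasm less than the others, rose as well. On DMSO arrays it read 8.14 in MP525, 8.20 in MP567 and 8.09 in MP570 at 6 h, and 8.23, 8.37 and 8.15 at 12 h. Under LBH589 it read 8.85, 9.05 and 8.55 at 6 h and 8.76, 9.36 and 8.73 at 12 h. The groups did not overlap at either time, and MP567 was the highest tumour in all 4 groups. Within tumours the rise was 0.71, 0.85 and 0.46 at 6 h and 0.52, 0.998 and 0.59 at 12 h. In limma it was 0.67 ± 0.18 (SE) at 6 h (95% confidence interval 0.29 to 1.06, adjusted p of 0.0233). At 12 h it was 0.70 ± 0.18 (0.32 to 1.09, adjusted p of 0.0163). With the tumour as a block the adjusted p in limma was 0.000382 and 0.000242. Without the block, the 6 h call ended without any 1 of 5 arrays (adjusted p of 0.0615 and 0.0677 without the DMSO 6 h arrays of MP525 and MP570, 0.0502 without that of MP567, and 0.0701 and 0.0807 without the LBH589 6 h arrays of MP525 and MP567), and without all arrays of MP525 (0.195) or MP570 (0.0882). The 12 h call ended without the DMSO 12 h array of MP570 (0.0588), without MP525 (0.102) and without MP570 (0.0816). Averaged over both times the rise was 0.69 ± 0.12, with an adjusted p of 0.00138 in limma.

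Foxo4, the member encoded on the X chromosome, was highest in tumour MP567 in every group. It read 8.09, 8.76 and 8.26 on the DMSO 6 h arrays of MP525, MP567 and MP570, and 8.39, 8.83 and 8.39 at 12 h. Under LBH589 it read 8.57, 8.98 and 8.55 at 6 h and 8.61, 9.25 and 8.61 at 12 h. The treatment groups overlapped at both times, and MP567 under DMSO read higher than MP525 and MP570 under LBH589. Each tumour was nevertheless higher under LBH589 than under DMSO, by 0.48, 0.22 and 0.29 at 6 h and by 0.22, 0.43 and 0.22 at 12 h. Without the block, limma gave 0.33 ± 0.23 (SE) at 6 h (95% confidence interval -0.16 to 0.83, adjusted p of 0.396) and 0.29 ± 0.23 at 12 h (-0.21 to 0.78, adjusted p of 0.444). With the tumour as a block the same differences had an SE of 0.09 and adjusted p of 0.0102 and 0.0204. In that fit the call held in 11 of 15 fits that left out an array or a tumour at 6 h and in 9 of 15 at 12 h. For the average over both times, 0.31 ± 0.06, it held in 15 of 15 (adjusted p of 0.00098, at most 0.0164).

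Foxo3, known for its part in neural stem cell upkeep and in cell death, did not pass the test for treatment at either time. On DMSO arrays it read 9.02 in MP525, 8.85 in MP567 and 8.91 in MP570 at 6 h, and 9.19, 9.07 and 9.20 at 12 h. Under LBH589 it read 9.07, 9.03 and 9.18 at 6 h and 9.10, 9.07 and 9.14 at 12 h. At 6 h the LBH589 arrays lay just above the DMSO arrays, by 0.01 at the closest, and at 12 h the groups overlapped. Within MP525, MP567 and MP570 the difference was 0.05, 0.18 and 0.27 at 6 h, higher under LBH589 in all 3. At 12 h it was -0.08, -0.002 and -0.06, lower in all 3. In limma the difference was 0.17 ± 0.10 (SE) at 6 h, with a 95% confidence interval of -0.05 to 0.39 and an adjusted p of 0.325 (0.144 with the tumour as a block). At 12 h it was -0.05 ± 0.10, with an interval of -0.27 to 0.17 and an adjusted p of 0.811 (0.709 with the block), and it was 0.03 with arrays centred on reference genes. The intervals leave room for a change of up to 0.39 on the log2 scale at 6 h.

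**Figure D3:**
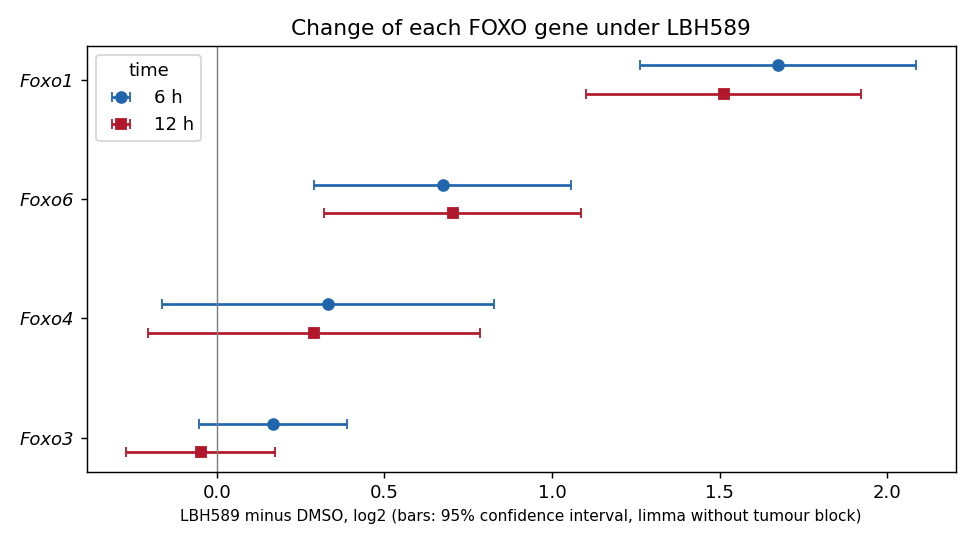
Difference between LBH589 and DMSO for each FOXO gene, in log2 units, at 6 h (circles) and 12 h (squares), from limma without the tumour block. Bars are 95% confidence intervals, and those of Foxo1 and Foxo6 lie above 0 at both times, while those of Foxo4 and Foxo3 include 0.

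No member was called with time in culture. From 6 to 12 h in DMSO, Foxo3 read higher in all 3 tumours, by 0.17, 0.22 and 0.29. Its difference was 0.23 ± 0.10 (SE), with a 95% confidence interval of 0.01 to 0.45 and an adjusted p of 1.0 in limma (0.53 with the tumour as a block). This comparison shares the DMSO arrays with the LBH589 effects given above. Foxo4 and Foxo6 also read higher at 12 h than at 6 h in DMSO in all 3 tumours, by 0.30, 0.06 and 0.13 and by 0.09, 0.17 and 0.06. Under LBH589 the differences were 0.03, 0.04 and -0.04 for Foxo3, 0.05, 0.27 and 0.06 for Foxo4, and -0.10, 0.32 and 0.19 for Foxo6. Foxo1 changed by 0.20, 0.30 and -0.07 from 6 to 12 h in DMSO and by -0.07, 0.01 and 0.00 under LBH589. In limma 0 of 4 members were called with time in DMSO (1 at an unadjusted p under 0.05, Foxo3), where 0.0214% of all tested genes were called. Of the 18652 tested genes, 412 had an unadjusted p under 0.05 in that comparison. Under LBH589 0 of 4 were called (0 unadjusted), against 0% of tested genes, of which 1415 had an unadjusted p under 0.05. The difference of the LBH589 effect between the times was called for 0 of 4 members (0 unadjusted) and for 0% of tested genes, with 490 genes at an unadjusted p under 0.05. With the tumour as a block, 58 tested genes were called with time in DMSO, 371 with time under LBH589 and 2 for the difference of effects. Of the 4 members 0 were called in each.

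Tumours differed in the level of Foxo1 and Foxo4, in different ways. By its brighter probe set Foxo1 was highest in MP525, whose 4 arrays averaged 8.88 against 8.52 in MP567 and 8.44 in MP570. It was lower by -0.37 ± 0.08 (SE) in MP567 and by -0.44 ± 0.08 in MP570 than in MP525, with adjusted p of 0.00319 and 0.00164 in limma, while MP570 and MP567 differed by -0.08 (adjusted p of 0.565). With the mean of its probe sets those differences were -0.11 and -0.20 and neither was called. The dimmer probe set went the other way, lowest in MP525 at 6.97 against 7.13 in MP567 and 7.02 in MP570. It was not called between any tumours (adjusted p of 0.204 to 0.785 in limma). Over the DMSO arrays alone, Foxo1 in MP567 was -0.34 from MP525 with an adjusted p of 0.0661. Foxo4 was highest in MP567, by 0.54 ± 0.08 over MP525 (adjusted p of 0.000165 in limma), and MP570 lay -0.50 ± 0.08 from MP567 (0.000284). MP525 and MP570 differed in Foxo4 by 0.04 (adjusted p of 0.814). Of all tested genes 27.3% were called between MP567 and MP525, 18.8% between MP570 and MP525 and 25.2% between MP570 and MP567, and of the 4 members 2, 1 and 2.

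Foxo6 was lower in MP570 than in MP567 by -0.37 ± 0.10 (SE), with an adjusted p of 0.0142 in limma. That call ended without the LBH589 12 h array of MP567 (0.0623) or the LBH589 6 h array of MP570 (0.07), and the difference was -0.17 over the DMSO arrays alone (0.299). Between MP567 and MP525 Foxo6 differed by 0.25 ± 0.10, with an adjusted p of 0.0803, and by 0.40 over the LBH589 arrays alone (0.0144). The tumours' Foxo3 levels differed by at most 0.10 in size, with adjusted p of 0.344 to 0.94. The LBH589 effect itself was compared between tumours by an F test in limma, which called 0 of 4 members (0 unadjusted) and 4.35% of all tested genes. For Foxo1 the adjusted p was 0.966, for Foxo3 0.829, for Foxo4 0.923 and for Foxo6 0.273.

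Across the 12 arrays Foxo1 and Foxo6 varied together (Pearson r of 0.846, and 0.948 after centring each tumour). Foxo4 and Foxo6 had an r of 0.784, and Foxo1 and Foxo4 0.425, which was 0.879 after centring each tumour. The arrays share 2 treatments and 3 tumours, so these values describe the pattern over those groups. Foxo3 had an r of 0.338 with Foxo1, -0.072 with Foxo4 and 0.166 with Foxo6, which were 0.359, 0.535 and 0.404 after centring each tumour. Among 16165 genes with a descriptive symbol, the pattern most like Foxo1 was that of Slc25a35 (r of 0.988), followed by Wdtc1 (0.986), Urod, Tmc3 and Metrn (0.982 each). The genes most like Foxo6 were Acacb (0.978), Mafk (0.968), Nipal1 (0.966), Grk6 (0.963) and Fzd5 (0.959). For Foxo4 they were Stxbp2 (0.95), Hip1r (0.949), Clcn2 (0.943), Rps19 (0.937) and Man2a2 (0.932). For Foxo3 the likeness was lower, with Nhsl1 (0.907), Lncpint (0.87), Gpr137c (0.851), Tead1 (0.843) and Nbea (0.832).

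Upstream of the family stand the kinases and adaptors that carry the insulin signal to FOXO proteins, of which 14 of 22 tested were not called. Of these 22, out of 24 listed, averaged over both times, 5 were called higher and 3 lower under LBH589 (5 and 2 at 6 h, 5 and 3 at 12 h), which is 36.4% of the list against 30.1% of all tested genes. The median change of the list was 0.15, beside -0.009 over all genes. Sgk1, a kinase that phosphorylates FOXO proteins as AKT does, rose by 0.85 ± 0.14 (SE) with an adjusted p of 0.000729 in limma. The receptor adaptor Irs2 rose by 0.67 ± 0.12, and Mtor and Pdpk1, kinases that act on AKT, rose by 0.51 ± 0.09 and 0.50 ± 0.07. AKT transcripts went the other way, Akt2 by -0.51 ± 0.10 (adjusted p of 0.00188 in limma) and Akt1 by -0.40 ± 0.08 (0.00174, and 0.0579 without tumour MP570). Phlpp2, a phosphatase that acts on AKT, fell by 0.51 (0.00457, and 0.0591 without MP567). With the tumour as a block and all arrays, the averaged adjusted p in limma was 1.59e-05 for Akt1 and 2.93e-05 for Phlpp2. A block for tumour gave 10 genes of the list higher and 4 lower (8 and 4 at 6 h, 7 and 5 at 12 h). Beside this list and those below, that fit called 45.9% of all tested genes averaged, 34% at 6 h and 37.1% at 12 h. Without the block 15.8% were called at 6 h and 18.2% at 12 h. The counts at single times rested on few arrays, since leaving out an array or a tumour gave 1 to 7 called at 6 h and 1 to 8 at 12 h, both lowest without MP525 (at 6 h also without MP570). Over all tested genes the calls at 6 h fell as well, from 2948 to 1042 without MP525 and to 893 without MP570. At 12 h they fell from 3395 to 1679 without MP525.

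Among enzymes and partners that act on FOXO proteins directly, more genes were lower than higher. Of 35 tested out of 39, averaged over both times, 4 were called higher and 17 lower (3 and 6 at 6 h, 2 and 12 at 12 h), or 60% of the list against 30.1% of all tested genes, with a median change of -0.14. Without tumour MP570 the count was 11 in place of 21, and with the tumour as a block 10 were higher and 18 lower (7 and 15 at 6 h, 4 and 18 at 12 h). At single times the count ranged from 1 to 13 at 6 h and from 3 to 14 at 12 h over fits that left out an array or a tumour, both lowest without MP570. For all tested genes, the fit without MP570 called 3313 averaged in place of 5607, 893 at 6 h and 1264 at 12 h. Setd7, a lysine methyltransferase that modifies FOXO3, fell by 1.25 ± 0.11 (SE) on the log2 scale, with an adjusted p of 1.24e-05 in limma. Prmt1, an arginine methyltransferase of FOXO1, fell by 0.90 ± 0.14. The acetyltransferase Crebbp fell by 0.61 ± 0.12, and its relative Ep300 by 0.72 ± 0.20 (adjusted p of 0.0173, and 0.0995 without MP570). With the tumour as a block the averaged Ep300 call held in 15 of 15 fits that left out an array or a tumour (adjusted p in limma of at most 0.000307). On the higher side, Bcl6, a repressor that is a FOXO target too, rose by 0.65 ± 0.11 and the deacetylase Sirt2 by 0.49 ± 0.09.

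Genes known as FOXO targets were called in both directions. Of 57 tested out of 61, averaged over both times, 18 were called higher and 5 lower (12 and 3 at 6 h, 17 and 4 at 12 h), or 40.4% of the list against 30.1% of all tested genes. The median change was 0.12, and with the tumour as a block 28 were called higher and 9 lower (21 and 7 at 6 h, 22 and 9 at 12 h). That fit called 45.9% of all tested genes averaged, 34% at 6 h and 37.1% at 12 h. Without the block, leaving out an array or a tumour gave 5 to 15 called at 6 h and 8 to 20 at 12 h, both lowest without MP570. Calls over all tested genes were fewer without MP570 too, at 893 and 1264. Ppargc1a, a coactivator of mitochondrial and glucose metabolism, rose by 1.84 ± 0.23 (SE) with an adjusted p of 0.000119 in limma. Gadd45b, a stress response gene, rose by 1.78 ± 0.19, and Txnip, an inhibitor of thioredoxin, by 1.34 ± 0.19. Cdkn1a, the cell cycle inhibitor p21, rose by 1.73 ± 0.35 (adjusted p of 0.00266 in limma, and 0.0516 without MP570). Its DMSO arrays varied widely, at 10.5 ± 0.94 (SD, n = 3) at 6 h against 12.3 ± 0.48 under LBH589. The mitotic kinase Plk1 fell by 0.76 ± 0.06, and Ccnd1, the cyclin D1 gene that FOXO proteins are known to repress, by 1.05 ± 0.19 (adjusted p of 0.00166, and 0.0642 without MP525). Cdkn1b, encoding the inhibitor p27 that FOXO proteins are known to induce, fell by 0.43 ± 0.11 (0.013), a call that ended without MP567 (0.129) and without MP570 (0.0972). These losses were in the fit without the block. With the tumour as a block the averaged calls of Cdkn1a, Ccnd1 and Cdkn1b held in 15 of 15 fits that left out an array or a tumour. Their adjusted p in limma was then at most 7.1e-05, 0.00599 and 0.00678. The list holds genes known as induced and genes known as repressed, and Irs2 and Bcl6 stand in it as well as in the lists above.

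Of 8 factors tested that are known to act on Foxo promoters, out of 10 listed, 3 were called higher and 2 lower on the average of both times, or 62.5% of this short list against 30.1% of all tested genes, with a median change of 0.22. The block for tumour gave 4 higher and 3 lower, and without any 1 tumour 3 were called. Stat3 rose by 1.19 ± 0.10 (SE), with an adjusted p of 9.39e-06 in limma, and E2f3 fell by 0.76 ± 0.11. Rb1, the retinoblastoma gene that holds E2F factors in check, rose by 0.85 ± 0.18 (0.00399, and 0.0684 without MP525). With the tumour as a block and all arrays, its averaged adjusted p in limma was 4.52e-07. Myc, the driver of this tumour model, differed by 0.15 ± 0.08, with an adjusted p of 0.211 in limma. Its relative Mycn was called higher, by 0.31 ± 0.09 (0.0257, and 0.00294 with the tumour as a block). Without the block that call ended in 9 of the 15 fits that left out an array or a tumour.

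**Figure D4:**
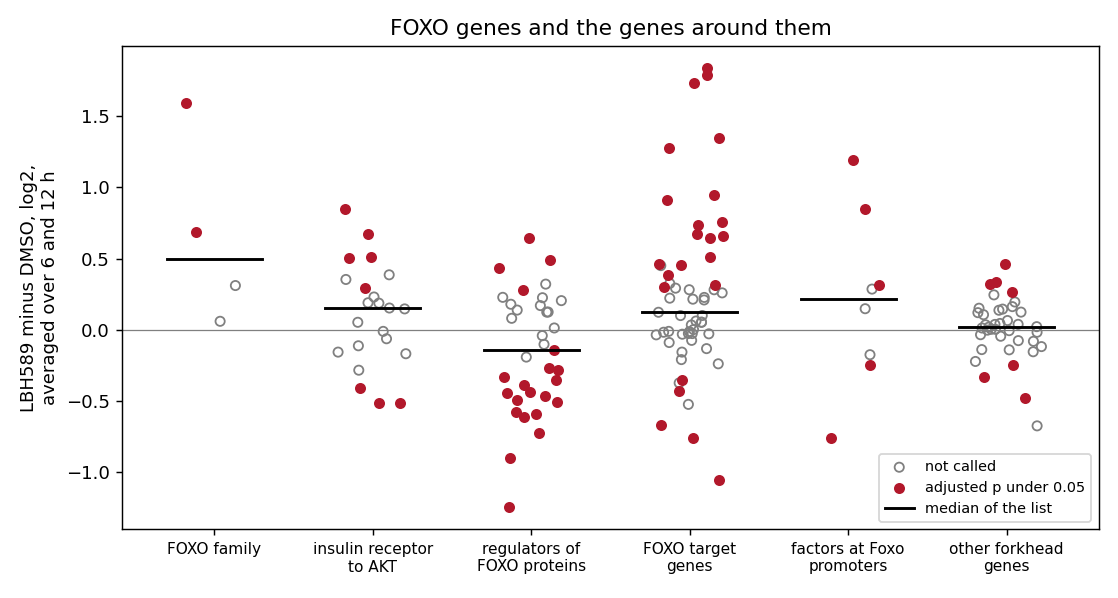
Difference between LBH589 and DMSO, averaged over 6 and 12 h, for each tested gene of the FOXO family and of the lists around it, in log2 units. Filled points had an adjusted p under 0.05 in limma, open points did not, and black lines are list medians. The FOXO targets Ppargc1a and Gadd45b, at 1.84 and 1.78, lie above Foxo1 at 1.59, and the median of the enzymes and partners of FOXO proteins lies below 0.

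Few of the other forkhead genes were called. Of 39 tested out of 40, averaged over both times, 4 were called higher and 3 lower, or 17.9% against 30.1% of all tested genes, with a median change of 0.02. Without tumour MP570 1 was called, in a fit that called 3313 of all tested genes in place of 5607. At 6 h 1 was called higher and 1 lower, and at 12 h 0 were called in limma, where 7 higher and 4 lower had an unadjusted p under 0.05. Of all 18652 tested genes, 5724 had an unadjusted p under 0.05 at 12 h. In the fit with the tumour block 4 were called higher and 3 lower at 6 h, 3 and 6 at 12 h, and 5 and 5 on average. Foxk1, a forkhead factor that represses autophagy genes, rose by 0.34 ± 0.08 (SE; adjusted p of 0.00803 in limma, and 0.0907 without MP570), while its relative Foxk2 fell by 0.25 ± 0.07 (0.0139, with 0.13 without MP525 and 0.071 without MP570). Foxm1, which drives genes of mitosis, fell by 0.33 ± 0.11 (0.0383), a call that ended in 12 of the 15 fits that left out an array or a tumour. With the tumour as a block and all arrays, the averaged adjusted p in limma was 0.000206 for Foxk1, 0.00207 for Foxk2 and 0.00368 for Foxm1. Foxp1 differed by 0.16 ± 0.11 and Foxp4 by 0.01 ± 0.15, and neither was called.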

How the data were processed

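RNA of 12 cultures was measured on 1 GeneChip whole-transcript array each. The authors deposited log2 values for 41345 probe sets, and the log base was read from their range of 1.50 to 14.5. The submitters' processing notes list Agilent Feature Extraction (version 10.7.3.1), which reads arrays of a different maker. Summarisation, background correction, normalization, scan date and batch are not given in the sources used here. No further normalization was applied.

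Probe sets naming 1 gene were used (23521, of which 23328 took their symbol from RefSeq), and the 1814 naming several and 16010 not listed were not. The brightest probe set stood for each of 22180 genes. A gene was tested if it lay above its array's 25th percentile on at least 3 arrays, which kept 18652. The 4 group means were fitted to all tested genes in limma 3.58.1 (R 4.3.3; lmFit, then eBayes with trend; 8 residual degrees of freedom), with two-sided p-values, Benjamini-Hochberg adjusted per comparison. Tumours were compared with group and tumour in the fit. The scripts were tested on simulated data. The number of arrays limits the precision.

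Replicate numbers follow the tumours in the labels. Deviations from group means correlated at 0.450 to 0.805 in 18 pairs of arrays of the same tumour, so the tumour pairs the arrays. Blocked values are given beside results whose call or count they change. In 36 pairs of another tumour and group the deviations correlated at -0.51 to -0.0577. Deviations within a group sum to 0, so these negative values follow from the positive ones within tumours and add no evidence of their own. Unless stated otherwise, calls on treatment said to end when an array or a tumour was left out are from the fit without the block.

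The members and the gene lists, written from general knowledge, were chosen with earlier results of these data known. Named were all members in every comparison, of each list up to 4 called genes with the largest averaged change in each direction, Foxk1, Foxk2, Foxm1, Foxp1, Foxp4, Akt1 and Akt2, and the 5 genes most like each member. The text gives part of these, mainly those whose call held, and Myc, chosen after their values were seen. Leaving out arrays within the blocked fit was chosen after seeing the data. Other alternatives were quantile normalization, centring on medians or on reference genes, other filters, other uses of probe sets, and subsets of arrays.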

Additional observations from a re-analysis of the deposited data

How the results depend on the processing

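The drug effects on Foxo1 and Foxo6 were positive under every alternative run, and Foxo1 was called in each. No alternative took the dimmer Foxo1 probe set as the gene's value. On its own it differed at 6 h by 0.066 to 0.101 over 8 alternatives, never called (adjusted p of 0.581 to 0.786 in limma). At 12 h it was called in 2 of 8. With the tumour as a replicate block, Foxo4 at 0.33, 0.29 and 0.31 (6 h, 12 h, average) was called in limma (adjusted p of 0.0102, 0.0204 and 0.00098), and so was its average with the tumour as a random block (0.015); the block changed no other call of a member on treatment or time. Called genes were 6333, 6928 and 8566 with the block in place of 2948, 3395 and 5607, and 5493 at 6 h and 6087 at 12 h with the random block. For the difference of effects, time in DMSO and time in LBH589 they were 2, 58 and 371 with the block, 2, 23 and 25 with the random block, and 0, 4 and 0 without; time in DMSO gave 0 with only the groups compared and 7 after quantile normalization.

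Over DMSO arrays alone, Foxo1 in MP567 minus MP525 was -0.34 and Foxo6 in MP570 minus MP567 -0.17, no longer called, and Foxo3 in MP570 minus MP525 turned to -0.048. Over LBH589 arrays alone Foxo4 in MP570 minus MP525 turned to -0.010 and Foxo6 in MP567 minus MP525, 0.40, was called, as it was at 0.30 after quantile normalization and at 0.30 after median centring. Differences near 0 changed sign. Foxo1 with time in LBH589 became 0.052 after quantile normalization, 0.056 on reference genes and 0.067 for the mean of probe sets. Foxo3 became -0.0072 with time in LBH589 after median centring, and 0.029 under LBH589 at 12 h on reference genes. The difference of effects became 0.0103 for Foxo4 on reference genes and 0.0103 for Foxo1 with the mean of probe sets. Foxp4 averaged over both times became -0.00063 after median centring. Foxq1 changed sign from a larger value. It was 0.37 at 6 h and 0.32 averaged without further normalization, and the average was called (adjusted p of 0.0491 in limma). After quantile normalization it was -0.089 at 6 h and -0.0039 averaged, no longer called (0.973). With the mean of its probe sets Foxo1 in MP567 and MP570 minus MP525 was -0.11 and -0.20, not called. The cause was not tested in any of these. Centred on reference genes, 2286 genes were higher and 1290 lower at 12 h in place of 1703 and 1692.

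Leaving out single arrays or tumours, with and without the block, gave Foxo4 at 0.19 to 0.53 (6 h), 0.075 to 0.43 (12 h) and 0.20 to 0.41 (average, called without MP567 at 0.0374 when unblocked). Foxo6 ranged from 0.56 to 0.81 at 6 h and 0.50 to 0.81 at 12 h, and with the block kept its call in 15 of 15 fits at each time. Foxo6 between MP567 and MP525 ranged from 0.14 to 0.32 and between MP570 and MP567 from -0.44 to -0.26. Ranges across 0 were found for time in LBH589 (Foxo1 -0.15 to 0.14, Foxo3 -0.022 to 0.054, Foxo4 -0.090 to 0.27, Foxo6 -0.069 to 0.25), the difference of effects (Foxo4 -0.26 to 0.10, Foxo6 -0.18 to 0.15), MP570 minus MP525 (Foxo3 -0.012 to 0.047, Foxo4 -0.0068 to 0.068), the dimmer Foxo1 probe set with time in DMSO (-0.12 to 0.033), Foxp1 at 12 h (-0.060 to 0.19) and Foxp4 (-0.00079 to 0.27 at 6 h, -0.30 to 0.055 at 12 h, -0.070 to 0.11 averaged). Called genes ranged from 893 to 3003 at 6 h, 1264 to 3370 at 12 h, 3313 to 5286 averaged, 0 to 2 for the difference of effects, 0 to 15 and 0 to 1 for time in DMSO and LBH589, and 100 to 1091 for the effect between tumours. Called genes of the lists ranged from 6 to 8 for the insulin signal, 11 to 20 for the partners and 19 to 25 for the targets, 1 to 6 for other forkhead genes and 3 to 6 for promoter factors, averaged over both times. At single times they were wider, 1 to 7 (6 h) and 1 to 8 (12 h), 1 to 13 and 3 to 14, 5 to 15 and 8 to 20, 0 to 2 and 0 to 3, and 1 to 3 and 2 to 3. With 3 tumours, differences such as those of Foxo3 could not be settled at this precision.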
